A study of Mus musculus with 10 samples.

Results

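Ccl20 and Ccr6 are the ligand and the receptor of a single chemokine axis, and they were taken by symbol as 2 of the 27179 genes in the count table. The pair was chosen by the Ccl20 values of gut regulatory T cells (Tregs), where the ligand was already known to be lower without Maf, so the values of that gut comparison are a description here and carry no test. Both genes passed the filter on low counts, Ccl20 only through its gut libraries. RNA was sequenced from CD4+ TCRb+ YFP+ cells sorted from gut or spleen of C57BL/6 mice. Gut stands for small intestine and colon together. The Maf-KO mice carried floxed Maf alleles together with Foxp3Cre-YFP (Maffl/fl x Foxp3Cre-YFP), so Cre is made, and the gene deleted, in cells that express Foxp3. The WT mice carried Foxp3Cre-YFP alone, so that the Cre-YFP allele is common to all 4 groups. There were 2 Maf-KO gut, 2 WT gut, 3 Maf-KO spleen and 3 WT spleen libraries. The age of the mice is not given in the sources used here, and nothing says that the libraries of a group came from separate animals, so p-values measure the spread between these samples.

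Ccl20 is secreted, and Ccr6 is its G protein-coupled receptor. The pair is known for drawing Th17 cells, B cells and dendritic cells to the gut lining and its lymphoid follicles, where the epithelium is a main source of the ligand. Many Tregs and Th17 cells carry Ccr6, and T cells of the Th17 type can also make Ccl20. Signalling runs through Gi proteins and phosphoinositide 3-kinase gamma to the small GTPases of cell migration, and arrestins and RGS proteins damp it. The Maf gene encodes a transcription factor with a basic leucine zipper, c-Maf.

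In RefSeq's annotation of GRCm38.p6, Ccl20 (Entrez 20297) is a protein-coding gene at chr1:83116766-83119167 with no overlapping gene. Ccr6 (Entrez 12458) lies at chr17:8236041-8258519 and overlaps the long non-coding RNA Gm33799, for which no count was used here. The strand setting of the authors' counting is not given in the sources used here, so reads of Ccr6 and Gm33799 could not be separated in that overlap. RefSeq lists 1 start of Ccl20 and 2 starts of Ccr6 in the promoter table. The 3 windows are shown because the ligand differed with genotype in gut and the receptor did not differ beyond its spread there. Each runs from 250 bases before to 50 bases after the start, on the plus strand of GRCm38.p6, and capitals mark motif matches:
Ccl20, chr1:83116516-83116815 (+): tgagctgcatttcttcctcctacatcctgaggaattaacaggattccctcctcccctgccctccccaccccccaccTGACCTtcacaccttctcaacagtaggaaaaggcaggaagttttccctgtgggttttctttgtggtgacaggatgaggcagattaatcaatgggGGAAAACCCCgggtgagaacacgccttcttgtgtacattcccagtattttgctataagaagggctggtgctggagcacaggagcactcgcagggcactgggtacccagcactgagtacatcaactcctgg
Ccr6 start 1, chr17:8235793-8236092 (+): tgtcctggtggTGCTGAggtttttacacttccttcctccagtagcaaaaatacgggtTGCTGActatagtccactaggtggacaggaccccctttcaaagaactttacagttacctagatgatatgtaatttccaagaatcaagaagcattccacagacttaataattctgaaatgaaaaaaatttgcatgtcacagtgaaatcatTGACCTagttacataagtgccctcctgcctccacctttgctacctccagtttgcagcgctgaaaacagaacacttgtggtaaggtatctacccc
Ccr6 start 2, chr17:8242276-8242575 (+): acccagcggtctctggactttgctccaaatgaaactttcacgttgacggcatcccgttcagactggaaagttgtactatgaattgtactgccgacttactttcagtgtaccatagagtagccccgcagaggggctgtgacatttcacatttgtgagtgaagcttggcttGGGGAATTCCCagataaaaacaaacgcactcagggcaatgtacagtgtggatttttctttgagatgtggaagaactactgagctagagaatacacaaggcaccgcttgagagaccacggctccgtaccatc
Searched on both strands were the Maf half-site TGCTGA, the nuclear receptor half-site AGGTCA, the AP-1 site TGANTCA and the NF-kB consensus. Of 32851 promoter windows of the same length, 19.5% held the Maf half-site, 16.3% the nuclear receptor half-site, 7.81% the AP-1 site and 8.46% the NF-kB consensus. The Ccl20 window held 1 match to the NF-kB consensus, beginning 80 bases before the start on the minus strand, and 1 nuclear receptor half-site on the minus strand, 174 bases before the start. It held 0 Maf half-sites and 0 AP-1 sites. The first Ccr6 window held 2 Maf half-sites on the plus strand, 239 and 193 bases before the start, and 1 nuclear receptor half-site on the minus strand. The second Ccr6 window held 3 overlapping matches to the NF-kB consensus, all within the 1 run of capitals. A match describes the letters of a window and is not a measured binding site.

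Maf itself followed the labels. It had 7 and 3 counts in Maf-KO gut against 859 and 918 in WT gut, and 2, 10 and 2 counts in Maf-KO spleen against 337, 312 and 484 in WT spleen. Foxp3 averaged 193 ± 26.1 CPM (counts scaled to library totals and TMM factors) in Maf-KO gut, 181 ± 34.8 in WT gut, 119 ± 4.57 in Maf-KO spleen and 126 ± 8.58 in WT spleen (SD, n = 2, 2, 3 and 3 libraries), and Cd4 and Cd3e reached at least 585.6 CPM in every library. Totals were 8567035 to 13983965 counts per library. A count of 0 allows up to 3 counts, which is 0.231 to 0.377 CPM depending on the library, and such limits and intervals cover counting error only.

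Ccl20 was far lower in Maf-KO gut Tregs than in WT gut Tregs. It had 63 and 32 counts in Maf-KO gut (5.48 and 2.55 CPM), against 1175 and 931 counts in WT gut (148 and 110 CPM). Both Maf-KO gut libraries lay far below both WT gut libraries, and the groups did not overlap. Ccl20 averaged 4.02 ± 2.07 CPM in Maf-KO gut and 129 ± 26.5 CPM in WT gut (SD, n = 2 each), a log2 fold change of -5.01 (SE 0.379), or 32.2-fold lower in Maf-KO. Among 10082 genes with a mean of at least 5 CPM in these libraries it had the 7th lowest log2 fold change. Across all genes tested, 0.151% were called in this comparison by edgeR's quasi-likelihood test at an adjusted p under 0.05 (0.136% lower in Maf-KO), and 18.8% had Maf-KO libraries all below WT libraries. In sorted bulk cells, fewer cells that make a transcript and less of it per cell cannot be told apart.

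Ccr6 RNA was present at similar levels in the same gut libraries. It had 1109 and 1536 counts in Maf-KO gut (96.4 and 123 CPM), against 1008 and 780 counts in WT gut (127 and 92.2 CPM). The ranges of the groups overlapped. The means were 109.5 ± 18.5 CPM in Maf-KO gut and 109.4 ± 24.3 CPM in WT gut (SD, n = 2 each), with a log2 fold change of 0.00178 (SE 0.193). An SE of this size leaves room for a modest difference in either direction.

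**Figure D1:**
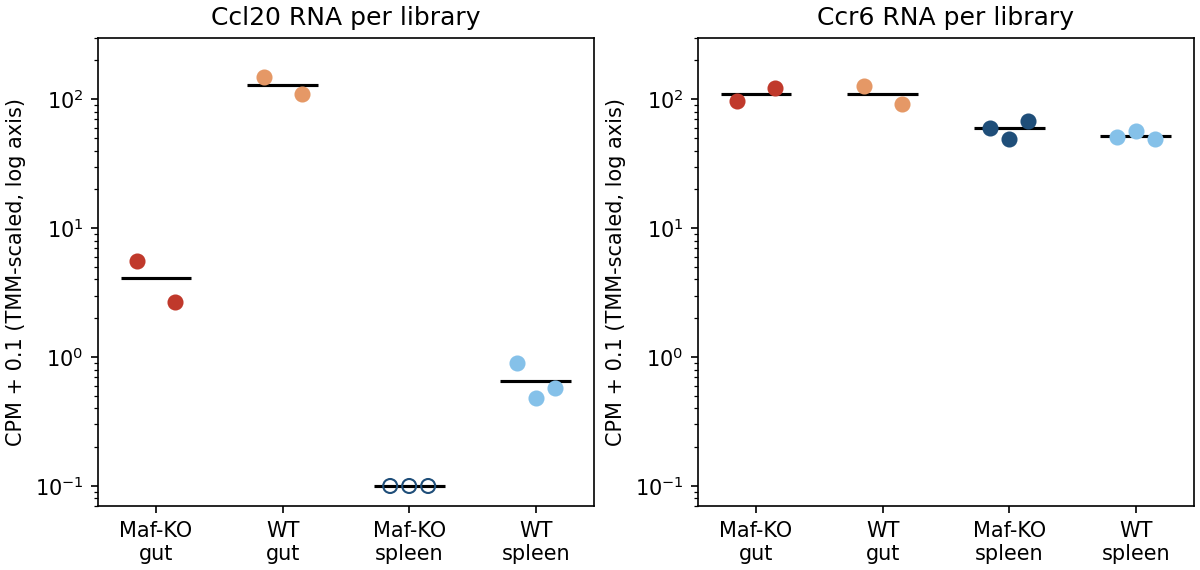
Ccl20 (left) and Ccr6 (right) RNA in each of the 10 libraries, as CPM plus a pseudocount of 0.1 on a log axis. Points are libraries, open circles are libraries with 0 counts and bars are group means; Ccl20 reached 148 and 110 CPM in WT gut, while Ccr6 lay between 49.1 and 127 CPM in every library.

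Ccl20 was barely detected in spleen, and the few reads came from WT cells. It had 0 counts in each of the 3 Maf-KO spleen libraries, against 9, 5 and 5 counts in WT spleen (0.80, 0.385 and 0.474 CPM). All WT spleen libraries lay above all Maf-KO spleen libraries, which was so, in the direction of lower in Maf-KO, for 3.9% of all genes tested. The 19 counts over the WT spleen libraries against a floor of 3 counts over the Maf-KO libraries give a level 5.2-fold lower in Maf-KO. This fold bounds the Maf-KO side only and takes the 19 counts as observed (95% exact Poisson interval 11.4 to 29.7). The difference between the spleen groups did not pass the test. The edgeR quasi-likelihood test gave an adjusted p of 0.999 over all genes, of which 0.0151% were called, all of them lower in Maf-KO. The two-sided exact permutation test gave p = 0.1, the smallest that 3 libraries against 3 allow. A model of the deposited log2 values did call Ccl20 (limma, adjusted p = 0.0027), but there the 3 libraries without reads all stand at one offset value of -5.009.

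Ccr6 did not differ between genotypes in spleen beyond the spread of its libraries. It had 554, 448 and 701 counts in Maf-KO spleen (60.1, 49.3 and 68.3 CPM), against 577, 730 and 518 counts in WT spleen (51.3, 56.2 and 49.1 CPM). The highest and the second highest library were Maf-KO, yet the ranges overlapped. Ccr6 averaged 59.2 ± 9.51 CPM in Maf-KO spleen and 52.2 ± 3.61 CPM in WT spleen (SD, n = 3 each). The log2 fold change was 0.18 (SE 0.16, adjusted p = 0.999 by edgeR, and p = 0.3 by the two-sided exact permutation test). The genotype effects on Ccr6 differed between gut and spleen by -0.18 on the log2 scale (SE 0.251, gut minus spleen).

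Ccr6 was higher in gut than in spleen Tregs of both genotypes. The gut libraries also enter the comparison that chose the pair, though for the ligand. In Maf-KO cells the gut libraries (96.4 and 123 CPM) lay above the spleen libraries (49.3 to 68.3 CPM), and the log2 fold change was 0.89 (SE 0.175, 1.85-fold, edgeR adjusted p = 0.00434). In WT cells the gut libraries (127 and 92.2 CPM) lay above the spleen libraries (49.1 to 56.2 CPM), with a log2 fold change of 1.07 (SE 0.175, 2.09-fold, edgeR adjusted p = 0.00166). By the two-sided exact permutation test p was 0.1 in each genotype, the smallest that 2 libraries against 3 allow. A tissue difference of this kind was common. Of all genes tested, 28.5% were called in Maf-KO (14.4% higher and 14.1% lower in gut) and 28% in WT (14.7% higher and 13.3% lower in gut). The gut libraries lay above all spleen libraries for 27.5% of genes in Maf-KO and 25.9% in WT. Ccr6 ranked 931 from the top of 10140 genes in Maf-KO and 838 of 10232 in WT. Without Maf-KO gut replicate 3 the Maf-KO value was 0.71 and no longer passed (edgeR adjusted p = 0.0525). Scaling by library totals alone moved the median of all genes by -0.26 in Maf-KO and -0.27 in WT (log2) and changed the split of called genes to 1243 higher and 3701 lower in Maf-KO gut, against 1904 and 1868 with TMM factors. In WT that split was 1328 higher and 3941 lower in gut, against 1942 and 1761 with TMM factors. Relative to the median under that scaling, Ccr6 was higher in gut by 0.906 in Maf-KO and 1.10 in WT.

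Ccl20 showed a far larger tissue difference, given as a description because its WT gut libraries chose it. In Maf-KO, the 95 counts of gut against the floor of 3 counts in spleen give a level 37.7-fold higher in gut. This fold bounds the spleen side only and takes the 95 counts as observed (95% exact Poisson interval 76.9 to 116). In WT the log2 fold change of gut over spleen was 7.85 (SE 0.394, 230-fold), the 5th highest of 10232 genes. From the top, the order of Ccl20 by mean CPM was thus gut of WT, gut of Maf-KO, spleen of WT and spleen of Maf-KO. The last step, within spleen, did not pass the edgeR test (adjusted p = 0.999). The step from Maf-KO gut to WT spleen was not tested. For Ccr6 the gut groups stood above the spleen groups, and the 2 genotypes overlapped within each tissue.

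Per unit of transcript length, ligand and receptor traded places in gut. On the authors' log2 FPKM scale Ccl20 stood below Ccr6 by -2.75 and -4.19 in the Maf-KO gut libraries, and above it by 1.60 and 1.64 in the WT gut libraries. The WT gut values correspond to 3.04 and 3.11 times as much Ccl20 as Ccr6. In WT spleen the difference was -4.58, -5.72 and -5.25, and in Maf-KO spleen it has no value because Ccl20 had no reads. Ccl20 lay above 40.1 and 27.9% of the 12252 listed genes in Maf-KO gut and above 96.9 and 95.5% in WT gut. Ccr6 lay above 82.8 and 86.6% of them in Maf-KO gut and above 87.4 and 82.4% in WT gut.

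**Figure D2:**
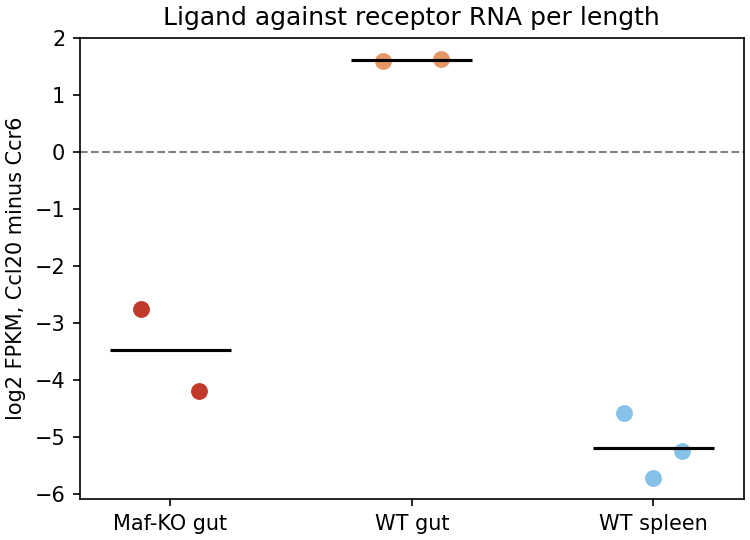
Difference between Ccl20 and Ccr6 in log2 FPKM within each library (points) with group means (bars). Both WT gut libraries sit above the dashed line of equal level, at 1.60 and 1.64, and all Maf-KO gut and WT spleen libraries sit below it; Maf-KO spleen is not drawn because Ccl20 had 0 reads.

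Among the 19 chemokine ligand genes with log2 FPKM values, Ccl20 ranked 9th in both Maf-KO gut libraries and 2nd in both WT gut libraries. It made up 0.79 and 0.438% of their summed FPKM in Maf-KO gut and 25.9 and 19.5% in WT gut. The highest ligands of Maf-KO gut by mean log2 FPKM were Ccl5 (8.76), a chemoattractant of T cells, Xcl1 (6.50), the ligand of Xcr1, Ccl4 (6.23), an inflammatory chemokine, and Cxcl10 (6.06), a ligand of Cxcr3. In WT gut they were Ccl5 (7.82), Ccl20 (7.23), Cxcl10 (6.67) and Xcl1 (6.18). Ccl20 was thus the second most abundant ligand per length in WT gut, and the other leading ligands were within 1 log2 unit between the genotypes. In spleen Ccl5 led in both genotypes, at 6.42 in Maf-KO and 6.42 in WT, and Ccl20 ranked 11th, 13th and 12th in WT.

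Among 20 receptors, Ccr6 ranked 9th and 8th in the Maf-KO gut libraries and 10th and 11th in WT gut. It ranked 6th, 7th and 4th in Maf-KO spleen and 5th, 6th and 7th in WT spleen. Its rank was lower in gut although its own level was higher there. The leading receptors of Maf-KO gut by mean log2 FPKM were Ccr8 (8.46), a receptor of skin-homing T cells and Tregs, Cxcr6 (8.23), the receptor of Cxcl16, Ccr7 (7.58), which guides cells to lymph nodes, and Ccrl2 (7.37), an atypical receptor. In WT gut they were Ccr8 (8.67), Cxcr6 (8.54), the small intestine homing receptor Ccr9 (7.77) and Ccrl2 (7.35). Spleen cells were led by Cxcr3 (7.50 in Maf-KO and 7.27 in WT) and Ccr7 (7.45 in Maf-KO and 7.68 in WT).

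**Figure D3:**
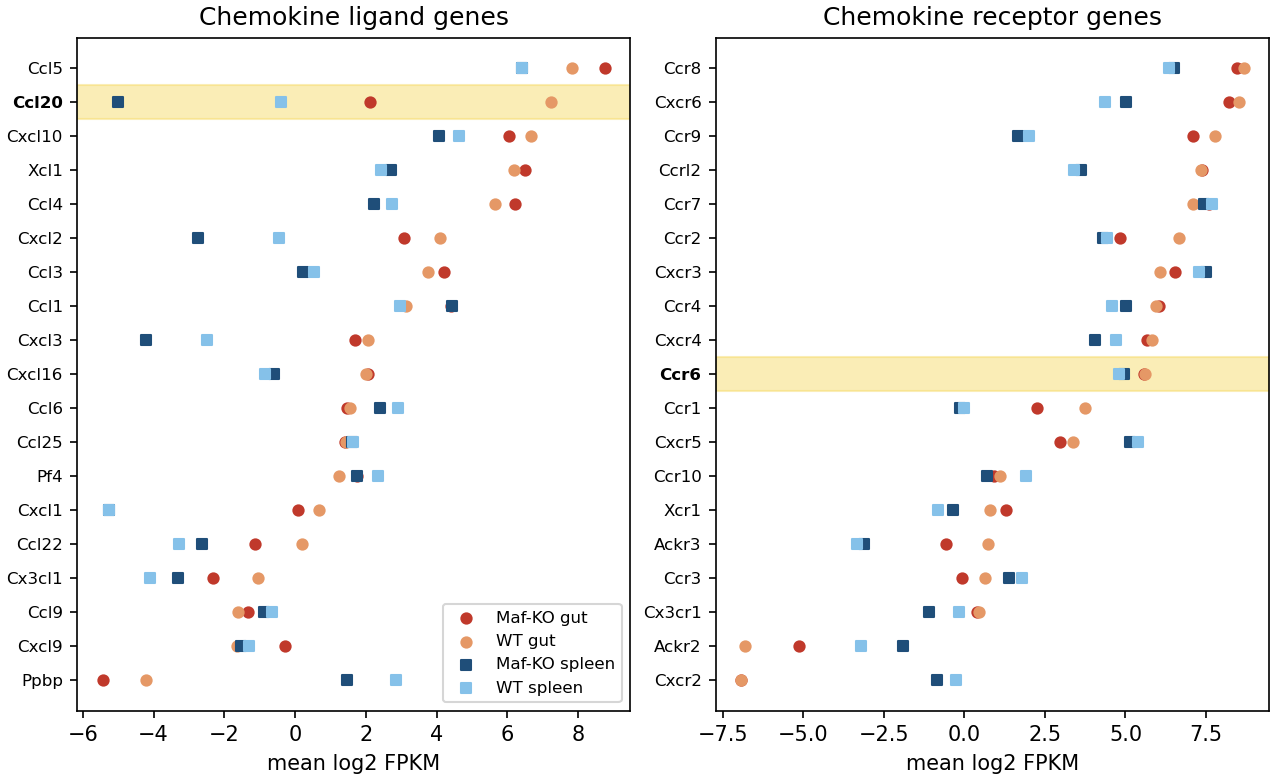
Mean log2 FPKM of 19 chemokine ligand genes (left) and 19 of the 20 receptor genes (right) in the 4 groups, ordered by WT gut, with circles for gut and squares for spleen and the rows of Ccl20 and Ccr6 shaded. Ccl20 averaged 2.13 in Maf-KO gut and 7.23 in WT gut, and Ccr6 5.59 in Maf-KO gut and 5.61 in WT gut; a gene with 0 reads stands at the authors' offset, as Ccl20 does at -5.01 in Maf-KO spleen.

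No other chemokine gene was called between genotypes by edgeR. Of 37 other ligand genes 18 were tested, and 0 were called in Maf-KO against WT in gut or in spleen by edgeR, with 3 in each tissue at an unadjusted p under 0.05 and 1 in each called by DESeq2 (Ccl1, higher in Maf-KO). Of all genes tested, 8.14% had an unadjusted p under 0.05 in gut and 2.85% in spleen, which is the background of these counts and of those for the lists that follow. Of 22 other receptor genes 18 were tested, and 0 were called in either tissue by edgeR, with 3 in each at an unadjusted p under 0.05. DESeq2 called 0 receptors in gut and 1 in spleen. Median log2 fold changes of Maf-KO over WT in gut were 0.061 for the ligands and -0.23 for the receptors, beside -0.0035 for all genes tested. In spleen these medians were -0.15 and -0.22, beside -0.0064.

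Between tissues, other chemokine genes were called too, against a background of 14.4% of all genes higher and 14.1% lower in Maf-KO gut, and 14.7% higher and 13.3% lower in WT gut. In Maf-KO, 9 of the 18 tested ligands were higher and 1 lower in gut, with a median log2 fold change of 2.0 beside -0.02 for all genes, and in WT 11 were higher and 1 lower, with a median of 2.5 beside -0.032. Xcl1 was higher in gut by 4.08 in Maf-KO (edgeR, SE 0.27 and adjusted p = 7.15e-06) and by 4.01 in WT (SE 0.272 and adjusted p = 7.77e-06). Ccl4, Ccl5, Cxcl10 and Cxcl2 also passed in both genotypes, Cxcl2, a neutrophil attractant, with 5.35 in Maf-KO and 4.84 in WT. Of the 18 tested receptors, 9 were higher and 3 lower in Maf-KO gut and 10 were higher and 3 lower in WT gut, with a median of 1.7 in both. Ccrl2 rose by 3.95 in Maf-KO gut and 4.2 in WT gut, Ccr9 by 5.69 and 5.96, and Cxcr6 by 3.46 and 4.40, against a fall of Cxcr5, the follicle homing receptor, by 1.93 in Maf-KO and 1.77 in WT (all edgeR). Ccr6, with 0.89 in Maf-KO and 1.07 in WT, was higher in gut by less than each of these called receptors, of which Ccr4 came nearest with 1.24 in Maf-KO and 1.56 in WT.

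Downstream of the receptor, none of the signalling or damping genes was called between genotypes by edgeR or DESeq2. Of 20 signalling genes 19 were tested, and 0 were called in gut or spleen by edgeR, with 1 in gut and 2 in spleen at an unadjusted p under 0.05 and 0 by DESeq2. In gut over spleen, 4 of the 19 were higher and 6 lower in Maf-KO and 3 higher and 6 lower in WT, where all genes gave 14.4% higher and 14.1% lower in Maf-KO and 14.7% and 13.3% in WT. Gng2, a G protein gamma subunit, rose by 0.985 in Maf-KO gut (edgeR adjusted p = 0.00153) and 0.901 in WT gut (0.00256). Pik3r5, the adaptor of phosphoinositide 3-kinase gamma, fell by 1.04 and 1.43, and Rasgrp2, an activator of Rap1, fell by 1.05 and 1.80. Of 15 damping genes 13 were tested, with 0 called between genotypes by edgeR, 1 in gut and 2 in spleen at an unadjusted p under 0.05, and 0 by DESeq2. Rgs2 was higher in gut by 4.82 in Maf-KO and 4.52 in WT, and Rgs1 by 2.48 and 2.54, whereas the platelet and myeloid regulator Rgs18 was lower by 4.03 and 4.16. The beta-defensins, whose human relatives can bind CCR6, were near absence: 0 of 5 genes were tested, and all counts were 0 except 1 count of Defb14 in WT gut replicate 1.

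No gene of the Th17-type programme was called between genotypes by edgeR. Of 20 such genes, all tested, 0 passed in gut or spleen, with 4 in gut and 3 in spleen at an unadjusted p under 0.05 and 1 in each tissue by DESeq2. Il17a, the cytokine that gives Th17 cells their name, had 54 and 136 counts in Maf-KO gut against 64 and 27 in WT gut (log2 fold change 0.47, SE 0.625, edgeR adjusted p = 0.911). Il22, an epithelial repair cytokine, had 160 and 296 counts in Maf-KO gut against 115 and 71 in WT gut (0.72, SE 0.44, adjusted p = 0.738). The CPM ranges of the groups overlapped for both cytokines. Il23r, the receptor of interleukin 23, had 74 and 105 counts in Maf-KO gut against 198 and 99 in WT gut (-1.30, SE 0.856, adjusted p = 0.76). Its Maf-KO gut libraries (6.44 and 8.38 CPM) lay below its WT gut libraries (24.9 and 11.7 CPM), as for 18.8% of all genes tested. In gut over spleen, 16 of the 20 genes were higher and 1 lower in Maf-KO, and 16 were higher and 2 lower in WT, beside 14.4% higher and 14.1% lower among all genes in Maf-KO and 14.7% and 13.3% in WT. Rora rose by 3.42 in Maf-KO and 3.22 in WT, Ahr by 1.78 and 1.99, and Nfkbiz by 4.25 and 3.86, while Il6ra fell by 3.33 and 3.63. Genes of NF-kB activation, a route known to induce Ccl20, gave 0 calls between genotypes among 18 tested by edgeR, with 0 in gut and 3 in spleen at an unadjusted p under 0.05 and 0 by DESeq2. Against that same background between tissues, 12 of the 18 were higher and 1 lower in Maf-KO gut over spleen and 9 higher and 0 lower in WT. Among them were Rel (3.42 in Maf-KO and 3.54 in WT) and Tnfaip3 (5.42 and 4.74). The list also holds inhibitors of NF-kB such as Nfkbib, so higher RNA in it is not a measure of activity.

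**Figure D4:**
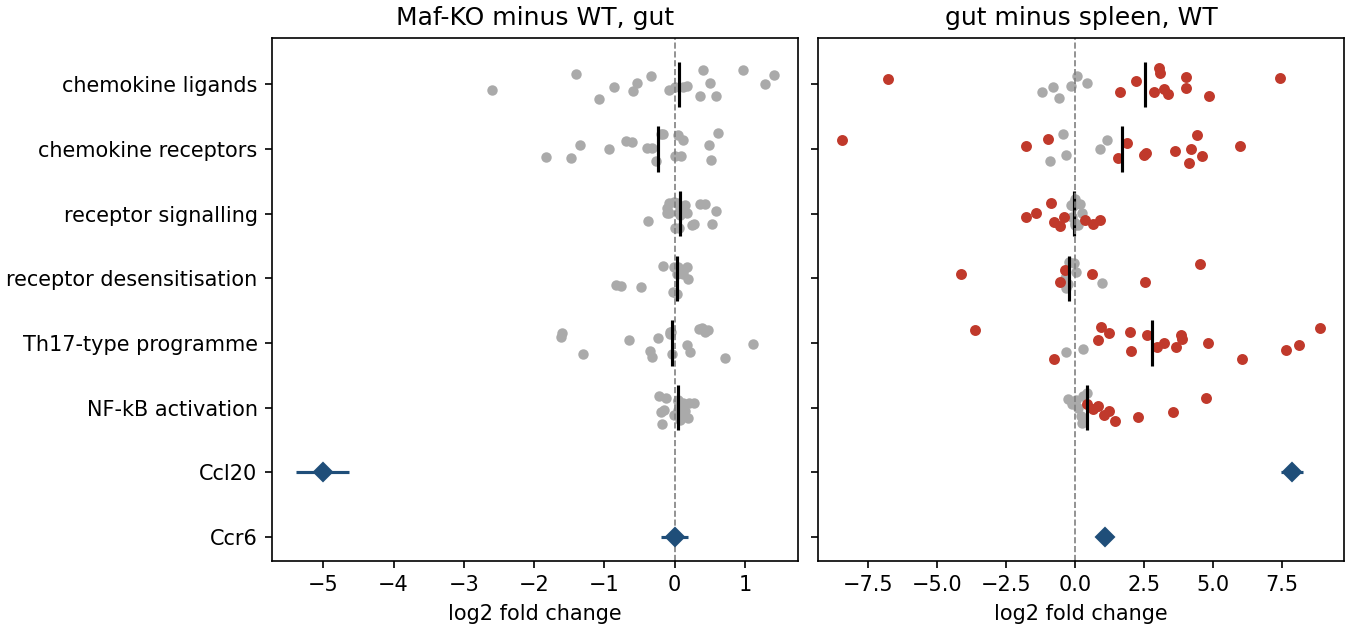
Log2 fold changes of each tested gene in 6 gene lists, for Maf-KO over WT in gut (left) and gut over spleen in WT (right), with called genes in red, others in grey, list medians as black lines and the pair as diamonds with SE bars. Ccl20 stands at -5.01 and Ccr6 at 0.00178 on the left, where no list gene was called; on the right they stand at 7.85 and 1.07.

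The marker genes of other cells were set beside these levels. Gut epithelium markers, 9 genes, summed to 147 to 158 CPM in Maf-KO gut and 142 to 177 CPM in WT gut, most of it Epcam. Fabp2, an enterocyte gene, had 4 and 3 counts in Maf-KO gut against 8 and 4 in WT gut, and Cdx2 had 0 and 1 against 0 and 0. Cdh1, the adhesion molecule E-cadherin, had 290 and 248 counts in Maf-KO gut against 42 and 52 in WT gut, a log2 fold change of 1.97 (SE 0.619, edgeR adjusted p = 0.425). The keratin genes varied within the groups, with 5 and 26 counts of Krt8 in Maf-KO gut against 20 and 0 in WT gut, and 5 and 39 counts of Krt19 against 22 and 0. Pancreatic acinar markers, 11 genes, summed to 16 to 27.3 CPM in Maf-KO gut and 40.3 to 192 CPM in WT gut. Of the 11, 3 and 2 had counts in the Maf-KO gut libraries and 11 and 10 in WT gut, and Pnlip had 0 and 0 against 215 and 64 counts. Ccl20 was 148 CPM in the WT gut library with 192 CPM of these markers and 110 CPM in the other, which had 40.3. Markers of CD8, NK and innate lymphoid cells, 6 genes, summed to 297 to 347 CPM in Maf-KO gut and 489 to 676 CPM in WT gut, most of it Il7r, which T cells also express. Of these 6 genes, 3 had a positive and 3 a negative log2 fold change of Maf-KO over WT in gut, with a median of 0.11. The part of the epithelial, acinar and lymphoid signals in the Ccl20 difference was not tested. Dendritic cell and macrophage markers, 9 genes, summed to 95 to 259 CPM in Maf-KO gut and 99 to 190 CPM in WT gut. B cell markers, 8 genes that mark another Ccr6-bearing cell, summed to 58.3 to 88.1 CPM in Maf-KO gut against 165 to 456 CPM in Maf-KO spleen, and to 60.9 to 77.1 CPM in WT gut against 232 to 347 CPM in WT spleen. The part of B cell RNA in the Ccr6 values was not tested. Neutrophil markers, 5 genes, were likewise lower in gut, at 0.559 to 1.65 CPM against 38.8 to 238 CPM in Maf-KO and 0.377 to 2.96 CPM against 32.9 to 612 CPM in WT.

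Over the 10 libraries, log2 CPM of Ccl20 and Ccr6 had a Pearson r of 0.757 and a Spearman rho of 0.65. This is a description, since the libraries share tissue, scaling and depth. Among 9347 genes with a mean of at least 5 CPM, the 5 with the profile closest to that of Ccl20 were Mynn (r = 0.98), Sdccag8 (0.975), Vamp8 (0.974), Stk39 (0.974) and Zfp53 (0.971). Mynn averaged 122 CPM in Maf-KO gut, 217 in WT gut, 74.3 in Maf-KO spleen and 78.3 in WT spleen, a much narrower range than that of Ccl20. The 5 closest to Ccr6 were Nfkbib (0.983), Tgif2 (0.977), Lrpap1 (0.975), Zswim4 (0.973) and Rap1b (0.972). Nfkbib, an inhibitor of NF-kB, averaged 91.3 CPM in Maf-KO gut, 91.7 in WT gut, 51.9 in Maf-KO spleen and 51.5 in WT spleen. Ranked by Spearman rho instead, 0 of these 5 genes stayed among the closest 5 for either member.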

How the data were processed

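Per the labels, RNA of sorted Tregs was purified with the RNeasy Plus Mini Kit and made into libraries with TruSeq RNA reagents. The deposited counts are raw read counts per Entrez gene, and the deposited log2 values are log2 FPKM of 12252 genes that the authors computed, with an offset for genes without reads. The submitters' processing notes name Subread, featureCounts, limma, GRCm38 and mm10, with tool versions not given in the sources used here.

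Tests used edgeR 4.0.16 under R 4.3.3: filterByExpr (minimum count 10, minimum total 15; 13214 of 27179 genes kept), TMM factors (0.887 to 1.12) and 1 quasi-likelihood model over all 10 libraries. Two-sided p-values got a Benjamini-Hochberg adjustment across the genes of a contrast, with calls made under 0.05. Folds against a group without counts set that group at 3 counts and take the counts of the other group as observed. Chi-square per degree of freedom between replicates was 14.8 to 35.1, so no libraries were merged. Alternatives used DESeq2 1.42.0 and limma 3.58.1, no filter, other scalings, blocks, fits to the groups compared, and each library left out. The tests were checked on simulated data with changes put into genes of at least 5 CPM. In Maf-KO against WT in gut, 56% of log2 changes of -1 and 50% of those of 1 were called. In spleen it was 66 and 74%. For log2 changes of -2 and 2 it was 84 and 96% in gut, and 96 and 98% in spleen. Unchanged genes called were 3 in gut and 12 in spleen. Each simulation held 50 changed genes per size and sign and no tissue difference, while the data gave 20 calls in gut and 2 in spleen. The adjusted threshold is stricter where fewer genes change, so recovery in the data may be lower. A gene that was not called may thus still differ between genotypes.

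Numbers in the sample titles are shared by a gut and a spleen library in 4 cases. The deviations of such pairs from their group means correlated at 0.302 to 0.487, and these numbers were taken to pair them. Libraries of different groups without a shared number reached 0.296 (WT spleen replicate 3 with Maf-KO spleen replicate 2), so the pairing is an assumption. The 2 libraries of a gut group have mirrored deviations, so the 4 correlations are not independent. With the title number as a random block (limma-voom), 42 genes were called in Maf-KO against WT in gut. In spleen it was 0, and between tissues in Maf-KO 5780.

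The members and gene lists were chosen with earlier results of these data known. The text names both members, Maf, the sort markers, the 5 genes most like each member by Pearson r, up to 4 called genes per list by adjusted p, the leading chemokine genes by log2 FPKM, and some list genes picked after their values were seen. Some genes that the rule or the lists name are not reported here. Sequences are from RefSeq (GRCm38.p6).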

Additional observations from a re-analysis of the deposited data

How the results depend on the processing

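The Ccl20 difference of Maf-KO over WT in gut was -5.65 to -4.55 (log2) over its 19 alternatives, and Ccr6 in gut -0.21 to 0.25. Ccr6 in spleen was 0.0653 to 0.296 with an adjusted p of at least 0.946. Ccr6 in gut over spleen was 0.802 to 1.28 in WT and kept its call under all 19 alternatives. In Maf-KO it was 0.628 to 1.05 and lost its call only without Maf-KO gut replicate 3 (0.707). Library totals alone, an alternative chosen after seeing the data, gave 0.628 in Maf-KO and 0.802 in WT, the lowest values of each. Ccl20 in spleen had an adjusted p of 0.0027 to 1 and passed only with limma-trend on log2 FPKM (-4.62). Alone, the spleen groups gave no Ccl20 value, as it failed the filter. Ccl20 in gut over spleen in Maf-KO, whose fitted value depends on how 0 counts are handled, was 6.15 with limma-voom, 7.14 with limma-trend and 6.17 with the title-number block, against 8.38.

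Counts of called genes varied more than the values of the pair. In Maf-KO against WT in gut 20 genes were called, against 74 without the filter, 112 with DESeq2, 33 with limma-voom, 12 with the compared groups alone and 4 to 12 without single libraries that changed it most. In spleen 2 genes were called, against 12 without the filter, 19 with DESeq2, 0 with limma-voom, 5 with limma-trend, 1 with the compared groups alone and 9 without WT spleen replicate 2. Between tissues, 3772 genes were called in Maf-KO, against 2390 without Maf-KO gut replicate 2 and 2120 without replicate 3; in WT it was 3703, against 2180 without WT gut replicate 1. DESeq2 called 8 genes for the difference of genotype effects, against 0.

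With the title number as a block, Ccr6 in gut over spleen was 0.893 (random) and 0.904 (fixed) in Maf-KO and 1.07 and 1.11 in WT, and no call on the pair changed. The replicate numbers of the labels do not pair genotypes: same-numbered spleen libraries correlated at -0.0468, -0.201 and -0.388. With that number as a block, Ccl20 was -5.09 in gut and -5.51 in spleen (adjusted p = 0.777), Ccr6 0.109 and 0.17, and 9 genes were called in gut. The spleen libraries held only 0 to 9 counts of Ccl20 each, which limits any statement on its size there.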

Other observations

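Ccl1, the ligand of Ccr8, had the lowest unadjusted p between genotypes in both tissues among the 18 tested ligands other than Ccl20 and was picked after its values were seen. It had 126 and 153 counts in Maf-KO gut against 35 and 43 in WT gut, and 103, 68 and 123 counts in Maf-KO spleen against 41, 44 and 37 in WT spleen. Every Maf-KO library lay above every WT library. The share of all genes tested that separated in that direction is not given here. In the opposite direction, lower in Maf-KO, it was 18.8% in gut and 3.9% in spleen. The log2 fold change of Ccl1 was 1.29 in gut (SE 0.275, edgeR adjusted p = 0.18) and 1.54 in spleen (SE 0.227, adjusted p = 0.163). Ccl1 thus failed the correction by edgeR in both tissues, while DESeq2 called it in both. Ccr8 had a log2 fold change of -0.19 in gut (SE 0.605, adjusted p = 0.97) and 0.43 in spleen (SE 0.503, adjusted p = 0.999).

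The tested genes nearest to Ccl20 on chromosome 1 were not called between genotypes in gut. Agfg1, 215765 bases to the lower side, had a log2 fold change of 0.62 in Maf-KO over WT gut (SE 0.138, edgeR adjusted p = 0.196), and Pid1, 917126 bases to the higher side, 0.28 (SE 0.954, adjusted p = 0.975). Near Ccr6 on chromosome 17, Cep43, 39564 bases to the lower side, had -0.36 (SE 0.145, adjusted p = 0.579) while on the higher side Gm8465, 2053 bases away, had -0.40 (SE 0.683, adjusted p = 0.932) and Mpc1, 25268 bases away, -0.26 (SE 0.336, adjusted p = 0.905). These neighbours were chosen by position after the values of the pair were known.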
